A study of Homo sapiens with 12 samples.

Results

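The genes described are 42 very long human genes, each spread over about 350 kb or more of the genome, measured in HepG2 cells given AICAR or Nutlin. A gene was read from its brightest array probe set among those annotated with its symbol alone. Of the 42, 40 were measured, with 1 such probe set each, among 18417 genes. MAGI1 and MAGI2 had no probe set of that kind and were not analysed here. A further 5 (IMMP2L, UBE2E2, AUTS2, PRKG1 and NAALADL2) lay below the signal level of 4.58 log2 units used to leave out dim genes, which left 35 of the 42 among the 13813 genes tested. Their loci run from 362 kb (FNDC3B) to 2058 kb (MACROD2) in RefSeq.

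HepG2 is an established human hepatoma line. Cells carrying a small hairpin against p53 (sh-p53) or a non-relevant control hairpin (sh-con) received, for 24 h, 0.5 mM AICAR, 10 uM Nutlin or the solvent DMSO. That gave 6 groups of 2 arrays (sh-p53 with AICAR, with Nutlin and with DMSO, and sh-con with the same), 12 in all, from cells plated as biological duplicates. AICAR is a cell-permeable nucleoside that cells phosphorylate to a mimic of AMP, and Nutlin is a small molecule that keeps MDM2 from binding p53. All cells carried a hairpin, so no group shows the line without one, and the labels do not say whether each line was a clone or a pool. The transcript that the sh-p53 hairpin targets was not analysed here.

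The length of these genes lies almost wholly in introns, so RNA polymerase II must travel for hours to finish one transcript, and its passage depends on elongation factors and on topoisomerases that release the twist ahead of it. Several of the loci (FHIT, WWOX, IMMP2L and MACROD2 among them) are known as common fragile sites or as frequent places of deletion in tumour genomes. The encoded proteins have little else in common: they include kinases and phosphatases, polarity and junction scaffolds, vesicle tethers, chromatin regulators and mitochondrial enzymes.

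The arrays are those of liver-like cells. All 14 hepatocyte markers measured were bright, with gene means of 7.82 to 12.8 log2 units, and with AICAR 0 were lower in either line, while 0 were higher in sh-p53 and 1 was higher in sh-con. The leukocyte marker PTPRC (3.26), the endothelial marker PECAM1 (4.30) and the fibroblast markers DCN (3.14) and LUM (2.99) lay below the dim level. Others on those lists passed it: 5 of 7 fibroblast markers (up to 8.12 for ACTA2), 2 of 7 endothelial (ENG, 5.81, and LYVE1, 5.09) and 2 of 5 leukocyte markers (CD14, 5.59, and CSF1R, 4.91). With AICAR the 2 leukocyte markers tested were both higher in sh-p53 cells and 1 was higher in sh-con cells, and the summed signal of the 5 was 7.06 to 7.11 log2 units with AICAR against 6.72 to 6.78 with DMSO in sh-p53 cells and 7.19 to 7.44 against 6.72 to 6.96 in sh-con cells. Their part in the AICAR results was not tested. The summed signal of 7 fibroblast markers was 8.43 to 8.49 log2 units with AICAR and 8.42 to 8.52 with DMSO in sh-p53 cells, and 9.15 to 9.17 and 9.14 to 9.15 in sh-con cells. With Nutlin it was 9.11 to 9.20 in sh-p53 cells and 10.67 to 10.85 in sh-con cells, and the sum of 7 endothelial markers was 8.70 to 8.96 with Nutlin against 7.20 to 7.27 with DMSO in sh-con cells. Their part in the Nutlin results was not tested. CDKN1A, a p53 target, was higher with Nutlin in both lines, by 1.39 ± 0.13 (SE) log2 units in sh-p53 cells and 2.84 ± 0.13 in sh-con cells. Duplicate arrays correlated at 0.983 to 0.994, and the sh-con AICAR pair was the least alike.

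With AICAR most of the very long genes fell in both lines. In sh-p53 cells 29 of the 35 were lower and 0 higher (30 and 0 at an unadjusted p under 0.05), where 21.6% of all genes tested were lower and 16.2% higher. In sh-con cells 30 were lower and 0 higher (31 and 1 at an unadjusted p under 0.05), where 23.2% of all genes tested were lower and 14.6% higher. Calls are at an adjusted p under 0.05 in limma, with Benjamini-Hochberg adjustment over all 13813 genes. The median change of the 35 was -1.40 log2 units in sh-p53 cells and -1.48 in sh-con cells, beside 0.07 and 0.04 over all genes tested. The fall was at least 2-fold for 25 genes in sh-p53 cells and 24 in sh-con cells. As bulk RNA was measured, less RNA per cell and fewer cells holding a transcript cannot be told apart.

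Array by array, the AICAR cultures stood apart from all others. The median of the 35 genes was 6.37 and 6.42 log2 units in the sh-p53 AICAR arrays and 6.24 and 6.17 in the sh-con AICAR arrays. The DMSO arrays had 7.69 and 7.45 in sh-p53 cells and 7.66 and 7.53 in sh-con cells, and the Nutlin arrays had 7.58 and 7.43, and 7.79 and 7.47. Both AICAR arrays lay below both DMSO arrays for 31 of the 35 genes in sh-p53 cells and for 32 in sh-con cells, beside 33.3% and 36.2% of all genes tested. The heat map of single arrays shows the same block of low values in all 4 AICAR columns.

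**Figure D1:**
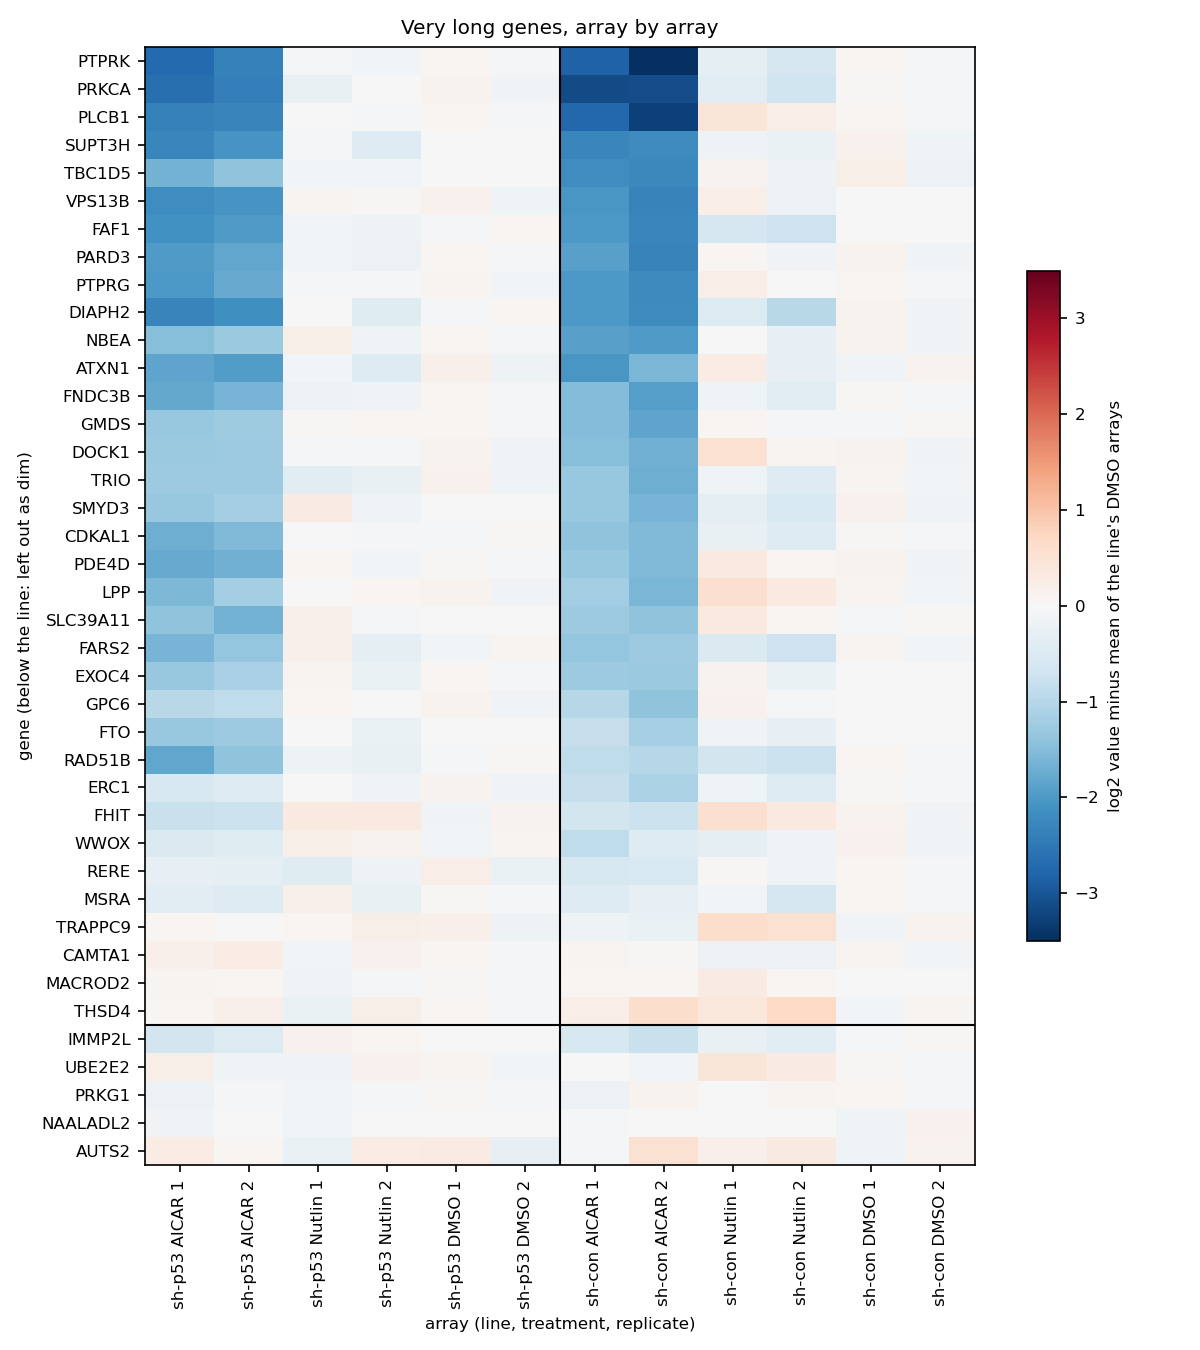
Log2 value of each very long gene in each of the 12 arrays (columns, by line, treatment and replicate), minus the mean of the DMSO arrays of the same line; genes below the horizontal line were left out of the tests as dim. The 4 AICAR columns are blue for most genes, down to the sh-con AICAR value of PTPRK, and the Nutlin columns are pale.

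The signalling enzymes and their partners fell furthest: 7 of 7 tested were lower in both lines, with medians of -1.87 log2 units in sh-p53 cells and -2.12 in sh-con cells. PTPRK, a receptor tyrosine phosphatase of cell contacts, had 6.68 and 7.03 log2 units with AICAR against 9.47 and 9.33 with DMSO in sh-p53 cells, and 6.86 and 6.19 against 9.75 and 9.64 in sh-con cells. The AICAR and DMSO arrays were more than 2 log2 units apart in each line. It changed by -2.55 ± 0.19 (SE) in sh-p53 cells and -3.17 ± 0.19 in sh-con cells, a 5.84-fold and a 9.02-fold decrease (adjusted p 2.89e-08 and 2.19e-09). PRKCA, the conventional protein kinase C alpha, had 5.55 and 5.79 with AICAR against 8.33 and 8.06 with DMSO in sh-p53 cells, and 5.41 and 5.45 against 8.60 and 8.50 in sh-con cells. Its duplicates lay close together, and it changed by -2.52 ± 0.16 in sh-p53 cells and -3.12 ± 0.16 in sh-con cells. PLCB1, a phospholipase C that acts below G protein-coupled receptors, had 6.37 and 6.43 with AICAR against 8.79 and 8.67 with DMSO in sh-p53 cells, and 5.99 and 5.47 against 8.82 and 8.67 in sh-con cells. It changed by -2.33 ± 0.16 in sh-p53 cells and -3.02 ± 0.16 in sh-con cells. The other 4 were PTPRG, a second receptor phosphatase (-1.88 in sh-p53 cells, -2.12 in sh-con cells), PDE4D, a cyclic AMP phosphodiesterase (-1.74 in sh-p53 cells, -1.44 in sh-con cells), and the guanine nucleotide exchange factors TRIO (-1.27 in sh-p53 cells, -1.52 in sh-con cells) and DOCK1 (-1.28 in sh-p53 cells, -1.58 in sh-con cells).

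Junction, scaffold and cytoskeletal genes were lower in 4 of 4 cases in both lines. PARD3, a scaffold of the cell polarity complex, had 6.54 and 6.69 log2 units with AICAR against 8.59 and 8.44 with DMSO in sh-p53 cells, and 6.61 and 6.17 against 8.62 and 8.40 in sh-con cells, with no overlap. It changed by -1.90 ± 0.16 (SE) in sh-p53 cells and -2.12 ± 0.16 in sh-con cells. The formin DIAPH2, which builds actin filaments, changed by -2.22 ± 0.18 in sh-p53 cells and -2.11 ± 0.18 in sh-con cells, and LPP, a LIM protein of focal adhesions, by -1.39 ± 0.17 in sh-p53 cells and -1.42 ± 0.17 in sh-con cells. DIAPH2 means with AICAR, 4.39 in sh-p53 and 4.45 in sh-con cells, lay under the dim level, so the size of its change is uncertain. ERC1, a scaffold of the cell cortex and the presynaptic zone, moved least of the 4, by -0.50 ± 0.16 and -0.94 ± 0.16. In sh-p53 cells ERC1 lost its call without DMSO replicate 1 (-0.37, adjusted p 0.158) and without AICAR replicate 1 (-0.45, adjusted p 0.107).

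Of the membrane traffic genes, 4 of 5 were lower in both lines. TBC1D5, a Rab GTPase-activating protein tied to the retromer, had 5.76 and 6.00 log2 units with AICAR against 7.41 and 7.40 with DMSO in sh-p53 cells, and 5.48 and 5.40 against 7.85 and 7.46 in sh-con cells. It changed by -1.53 ± 0.16 (SE) in sh-p53 cells and -2.22 ± 0.16 in sh-con cells. VPS13B, a lipid transfer protein of the Golgi, had 5.19 and 5.31 with AICAR against 7.52 and 7.23 with DMSO in sh-p53 cells, and 5.41 and 5.12 against 7.48 and 7.43 in sh-con cells. In each line its arrays were well separated, and the changes, -2.13 ± 0.16 in sh-p53 cells and -2.19 ± 0.16 in sh-con cells, differed by less than their SE. EXOC4, a subunit of the exocyst that tethers vesicles to the plasma membrane, changed by -1.23 ± 0.15 in sh-p53 cells and -1.28 ± 0.15 in sh-con cells, and NBEA, a BEACH-domain protein of neuronal traffic, by -1.40 ± 0.16 in sh-p53 cells and -1.94 ± 0.16 in sh-con cells. NBEA means with AICAR, 4.48 and 4.49, lay under the dim level. The exception, TRAPPC9, is described with the other genes that were not called.

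Transcription and chromatin genes were lower in 3 of 5 cases in sh-p53 cells and 4 of 5 in sh-con cells. SUPT3H, a subunit of the SAGA coactivator, had 4.54 and 4.74 log2 units with AICAR against 6.83 and 6.80 with DMSO in sh-p53 cells, and 4.74 and 4.82 against 7.18 and 6.86 in sh-con cells. It changed by -2.17 ± 0.16 (SE) in sh-p53 cells and -2.24 ± 0.16 in sh-con cells, and its AICAR values came down to near the dim level. ATXN1, the gene expanded in spinocerebellar ataxia, changed by -1.89 ± 0.20 in sh-p53 cells and -1.82 ± 0.20 in sh-con cells, and SMYD3, a lysine methyltransferase, by -1.26 ± 0.17 in sh-p53 cells and -1.48 ± 0.17 in sh-con cells. RERE, an atrophin-family corepressor, had 8.24 and 8.20 with AICAR against 8.75 and 8.30 with DMSO in sh-p53 cells, and 7.81 and 7.83 against 8.45 and 8.29 in sh-con cells. All 4 AICAR values lay below the DMSO values of their line, by little in sh-p53 cells. RERE was not called in sh-p53 cells (-0.31 ± 0.16, adjusted p 0.127) and was lower in sh-con cells (-0.55 ± 0.16, adjusted p 0.0106). The sh-con call was lost without DMSO replicate 1 (-0.47, adjusted p 0.106) or with a second quantile normalisation (adjusted p 0.0548), and without sh-p53 DMSO replicate 2 RERE was called in sh-p53 cells (-0.54, adjusted p 0.0345).

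Both repair and ubiquitin genes were lower in both lines. FAF1, a ubiquitin-binding partner of the p97 ATPase, had 6.52 and 6.65 log2 units with AICAR against 8.56 and 8.71 with DMSO in sh-p53 cells, and 6.65 and 6.40 against 8.67 and 8.67 in sh-con cells. It changed by -2.05 ± 0.14 (SE) in sh-p53 cells and -2.15 ± 0.14 in sh-con cells. RAD51B, which acts in homologous recombination, changed by -1.62 ± 0.15 in sh-p53 cells and -0.95 ± 0.15 in sh-con cells.

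Metabolic and mitochondrial genes and transporters were lower in 7 of 9 cases in both lines. The mitochondrial phenylalanyl-tRNA synthetase FARS2 changed by -1.49 ± 0.17 (SE) in sh-p53 cells and -1.31 ± 0.17 in sh-con cells, the tRNA-modifying enzyme CDKAL1 by -1.63 ± 0.14 in sh-p53 cells and -1.48 ± 0.14 in sh-con cells, and the GDP-fucose enzyme GMDS by -1.28 ± 0.14 in sh-p53 cells and -1.69 ± 0.14 in sh-con cells. The zinc transporter SLC39A11 changed by -1.53 ± 0.15 in sh-p53 cells and -1.33 ± 0.15 in sh-con cells, and the RNA demethylase FTO by -1.29 ± 0.15 in sh-p53 cells and -0.99 ± 0.15 in sh-con cells. FHIT, a nucleotide hydrolase, had 4.45 and 4.48 log2 units with AICAR against 5.10 and 5.36 with DMSO in sh-p53 cells, and 4.77 and 4.65 against 5.53 and 5.30 in sh-con cells. FHIT changed by -0.76 ± 0.14 in sh-p53 cells and -0.70 ± 0.14 in sh-con cells, from low levels, and its sh-p53 AICAR mean lay under the dim level. WWOX, an oxidoreductase with WW domains, had 6.39 and 6.45 with AICAR against 6.80 and 6.97 with DMSO in sh-p53 cells, and 6.24 and 6.69 against 7.28 and 7.00 in sh-con cells. WWOX changed by -0.47 ± 0.16 in sh-p53 cells and -0.67 ± 0.16 in sh-con cells (adjusted p 0.0289 and 0.0030), with the groups apart in both lines. Its sh-p53 call was lost without any 1 of the 4 arrays (adjusted p 0.0508 and 0.186 without DMSO replicates 1 and 2, 0.135 and 0.0651 without AICAR replicates 1 and 2), and its sh-con call without DMSO replicate 1 (-0.53, adjusted p 0.0635).

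Surface and matrix genes were lower in 2 of 3 cases in both lines. FNDC3B, a membrane protein with fibronectin repeats and the brightest of the list at a mean of 10.12 log2 units, changed by -1.70 ± 0.15 (SE) in sh-p53 cells and -1.72 ± 0.15 in sh-con cells. GPC6, a glypican that carries heparan sulphate, changed by -0.94 ± 0.15 in sh-p53 cells and -1.22 ± 0.15 in sh-con cells. The 5 dim genes were not tested. Their AICAR differences from DMSO were -0.56 and -0.67 for the mitochondrial peptidase IMMP2L, and between -0.14 and 0.26 for the cyclic GMP-dependent kinase PRKG1, the ubiquitin-conjugating enzyme UBE2E2, AUTS2 and NAALADL2.

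**Figure D2:**
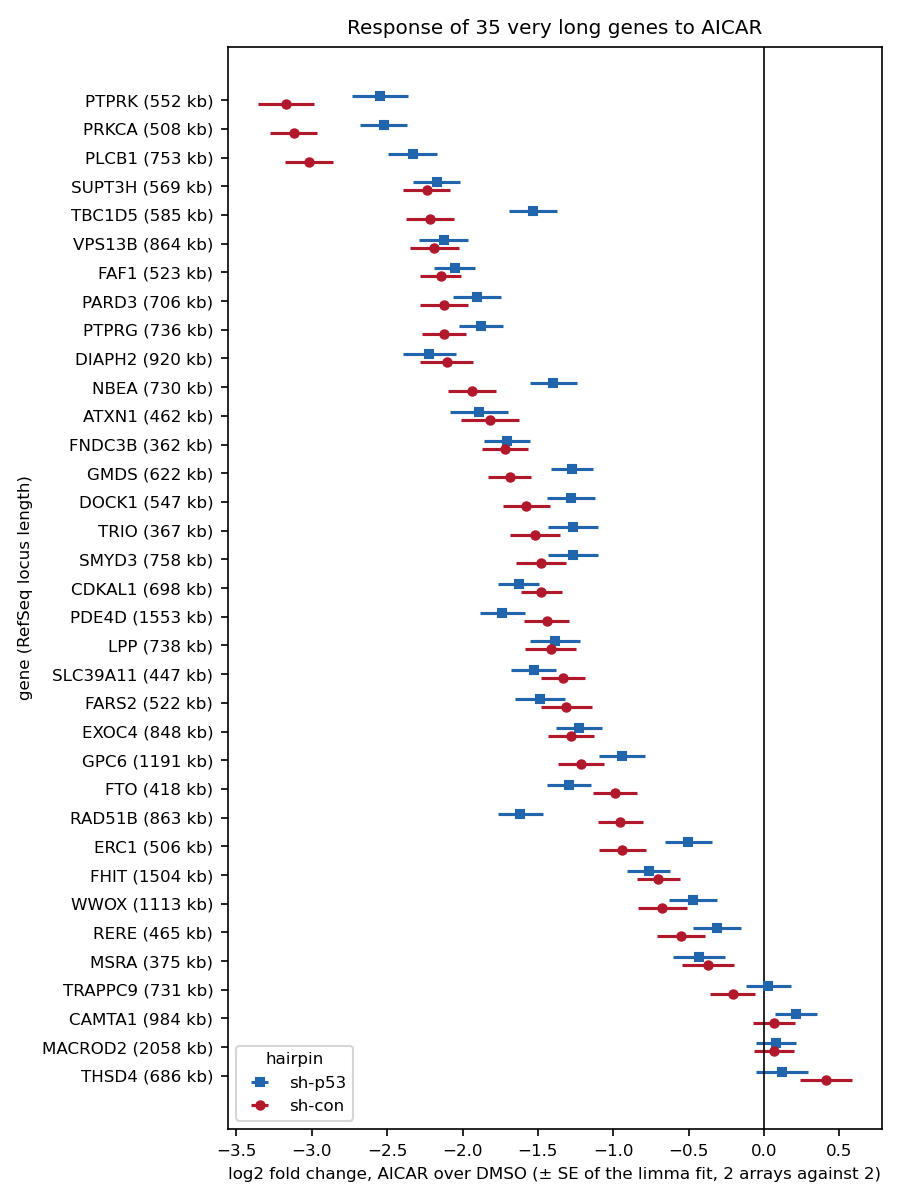
Log2 fold change of AICAR over DMSO for the 35 tested genes in sh-p53 (squares) and sh-con cells (circles), with the SE of the fit from 2 arrays against 2 and the RefSeq locus length beside each name. The genes run from PTPRK, at -2.55 and -3.17, to THSD4, at 0.12 and 0.41, and the order along the axis does not follow length.

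The 5 tested genes that were called in neither line with AICAR were CAMTA1, MACROD2, MSRA, THSD4 and TRAPPC9. TRAPPC9, a subunit of the TRAPP tethering complex, had 6.62 and 6.56 log2 units with AICAR against 6.74 and 6.38 with DMSO in sh-p53 cells, and 6.54 and 6.47 against 6.58 and 6.84 in sh-con cells. Its sh-p53 arrays overlapped. The 95% intervals of the TRAPPC9 change were -0.28 to 0.34 in sh-p53 cells and -0.52 to 0.11 in sh-con cells, neither of which includes a 2-fold fall. CAMTA1, a calmodulin-binding transcription activator, had 6.39 and 6.47 with AICAR against 6.29 and 6.15 with DMSO in sh-p53 cells, and 6.30 and 6.23 against 6.29 and 6.10 in sh-con cells. The AICAR arrays of CAMTA1 were slightly above those with DMSO in sh-p53 cells and overlapped them in sh-con cells, and the intervals were -0.08 to 0.51 and -0.23 to 0.36. With DMSO, CAMTA1 (means 6.22 in sh-p53 and 6.20 in sh-con cells) and TRAPPC9 (6.56 and 6.71) lay below the list's array medians of 7.45 to 7.69. Most genes that fell were brighter than these 2 with DMSO. DIAPH2 (6.61 and 6.56), NBEA (5.88 and 6.43) and FHIT (5.23 and 5.41) fell from like or lower levels. Whether starting signal had a part in which genes were called was not tested.

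MSRA, which repairs oxidised methionine, had 6.06 and 6.00 log2 units with AICAR against 6.49 and 6.43 with DMSO in sh-p53 cells, and 6.31 and 6.46 against 6.82 and 6.69 in sh-con cells. All 4 AICAR values were below the DMSO values of their line. The change was -0.43 ± 0.17 (SE) in sh-p53 cells (adjusted p 0.0566) and -0.37 ± 0.17 in sh-con cells (adjusted p 0.0986), so MSRA missed the threshold by little. It was called lower in sh-p53 cells under 5 of the alternatives (adjusted p 0.0154 to 0.0410) and in sh-con cells with each array centred on its median (-0.51, adjusted p 0.0330). MACROD2, which removes ADP-ribose from proteins, and THSD4, a matrix protein with thrombospondin repeats, lay near the dim level, with means of 4.75 and 4.71. MACROD2 had 4.80 and 4.77 with AICAR against 4.74 and 4.67 with DMSO in sh-p53 cells, and 4.79 and 4.77 against 4.74 and 4.69 in sh-con cells. THSD4 had 4.74 and 4.84 against 4.73 and 4.60, and 4.62 and 5.01 against 4.30 and 4.50. Both genes were thus near the floor before treatment, with AICAR values at or slightly above those with DMSO. THSD4 was called higher in sh-con cells once AICAR replicate 1 was left out (0.61, adjusted p 0.0163, against 0.41, adjusted p 0.0692, with all arrays).

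The directions of TRAPPC9, CAMTA1, MACROD2 and THSD4 turned in at least 1 line under another scaling of the arrays. Centring each array on its median moved the fold changes of all genes by -0.15 log2 units in sh-p53 cells and -0.14 in sh-con cells, and called 31 of the 35 lower in each line. Under that scaling 3665 of all tested genes were lower and 1100 higher in sh-p53 cells, against 2982 and 2235 as deposited, and 3920 and 1103 in sh-con cells, against 3198 and 2023.

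The responses of the 2 lines to AICAR rest on separate arrays. Across the 35 genes they correlated at 0.937 (Pearson, a description over genes), and 24 of the 35 were more negative in sh-con cells. As a test of that difference, the interaction of AICAR and hairpin called 0 genes lower and 0 higher (1 and 5 at an unadjusted p under 0.05), beside 0.709% and 0.304% of all genes tested. The 5 were PTPRK, PRKCA, PLCB1, TBC1D5 and NBEA, with differences of 0.54 to 0.69 log2 units (smaller falls in sh-p53 cells) and adjusted p of 0.163 to 0.321. RAD51B was the 1 of opposite sign, at -0.66 ± 0.21 (SE, adjusted p 0.146). Between the AICAR-treated lines themselves, sh-p53 against sh-con, 1 gene was higher and 0 lower (4.13% and 4.69% of all genes, with 5 and 3 of the list at an unadjusted p under 0.05). That gene was PLCB1, with 6.37 and 6.43 in sh-p53 cells against 5.99 and 5.47 in sh-con cells, higher by 0.67 ± 0.16 (adjusted p 0.0139). PLCB1 lost the call without sh-con AICAR replicate 2 (0.41, adjusted p 0.141) or without sh-p53 AICAR replicate 1 or 2 (adjusted p 0.0631 and 0.0872).

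With DMSO, limma called 0 of the 35 genes higher and 0 lower in sh-p53 against sh-con cells, beside 0.261% and 0.384% of all genes. At an unadjusted p under 0.05 there were 0 higher and 4 lower: NBEA (-0.55), GPC6 (-0.51), PRKCA (-0.35) and GMDS (-0.33). The median difference was -0.04.

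Nutlin did not lower the list as a whole. In sh-p53 cells 0 of the 35 were lower and 0 higher (0 and 1 at an unadjusted p under 0.05), where 0% of all genes tested were lower and 0.0796% higher. In sh-con cells 5 were lower and 4 higher, near the 18.9% and 11.3% of all genes tested. The medians of the 35 were -0.05 in sh-p53 cells and -0.06 in sh-con cells. Nutlin and AICAR were set against the same DMSO arrays in each line, so their values are not independent. PLCB1, for one, had 9.17 and 8.97 log2 units with Nutlin in sh-con cells against 8.82 and 8.67 with DMSO, a difference of 0.32 ± 0.16 (SE) that was not called.

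The 5 genes lower with Nutlin in sh-con cells were DIAPH2, RAD51B, FAF1, FARS2 and PRKCA. RAD51B had 6.94 and 6.85 log2 units with Nutlin against 7.09 and 7.15 with DMSO in sh-p53 cells, and 6.29 and 6.18 against 7.00 and 6.84 in sh-con cells. It fell by 0.69 ± 0.15 (SE) in sh-con cells (adjusted p 0.0019). FAF1 had 8.55 and 8.46 with Nutlin against 8.56 and 8.71 with DMSO in sh-p53 cells, and 8.07 and 7.95 against 8.67 and 8.67 in sh-con cells, and fell by 0.66 ± 0.14 in sh-con cells (adjusted p 0.0016). Both genes stood apart from DMSO in sh-con cells and kept their call without any 1 array. DIAPH2 had 6.08 and 5.60 against 6.68 and 6.44, and FARS2 had 6.53 and 6.33 against 7.14 and 6.95, with changes of -0.72 ± 0.18 and -0.61 ± 0.17 in sh-con cells. PRKCA changed by -0.53 ± 0.16 there, beside -3.12 with AICAR. DIAPH2, FARS2 and PRKCA lost their calls without DMSO replicate 1 (adjusted p 0.0778, 0.114 and 0.129) or without Nutlin replicate 2 (adjusted p 0.118, 0.109 and 0.201).

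The 4 genes higher with Nutlin in sh-con cells were TRAPPC9, THSD4, LPP and FHIT. TRAPPC9 had 7.32 and 7.25 log2 units with Nutlin against 6.58 and 6.84 with DMSO, with no overlap, and was higher by 0.58 ± 0.15 (SE, adjusted p 0.0075). LPP had 9.56 and 9.35 against 9.09 and 8.91, higher by 0.46 ± 0.17, while AICAR lowered it. FHIT had 5.97 and 5.76 against 5.53 and 5.30, higher by 0.45 ± 0.14, and THSD4 had 4.77 and 5.10 against 4.30 and 4.50, higher by 0.54 ± 0.17. Each of the 4 calls was lost without at least 1 array. TRAPPC9 lost its call without DMSO replicate 1 (adjusted p 0.134). THSD4 lost it without DMSO replicate 1 or Nutlin replicate 2 (adjusted p 0.205 and 0.250), and FHIT without DMSO replicate 2 or Nutlin replicate 1 (adjusted p 0.184 and 0.161). LPP lost it without any 1 of the 4 arrays (adjusted p 0.0757 to 0.218), and both LPP and FHIT lost it with each array centred on its median (adjusted p 0.110 for LPP and 0.0799 for FHIT).

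Between the Nutlin-treated lines, sh-p53 against sh-con, 4 genes were higher and 2 lower, beside 13.1% and 8.31% of all genes tested. The 4 were RAD51B (0.66), DIAPH2 (0.58), FARS2 (0.52) and FAF1 (0.49), and the 2 were TRAPPC9 (-0.58) and GPC6 (-0.52). Of the 6, RAD51B kept its call without any 1 array. The others lost it without sh-p53 Nutlin replicate 1 (adjusted p 0.313, 0.445, 0.110, 0.0841 and 0.0757 for DIAPH2, FARS2, FAF1, TRAPPC9 and GPC6), and each also without at least 1 sh-con array or the other sh-p53 array. The interaction of Nutlin and hairpin called 0 lower and 0 higher (1 and 4 at an unadjusted p under 0.05), beside 2.73% and 4.67% of all genes.

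Compared directly in sh-con cells, Nutlin against AICAR, 30 of the 35 were higher with Nutlin and 0 lower (30 and 0 at an unadjusted p under 0.05), beside 17.9% and 16.9% of all genes. The median difference was 1.39 log2 units. PLCB1 had 9.17 and 8.97 with Nutlin against 5.99 and 5.47 with AICAR, a 10.1-fold difference. The 5 that did not pass were CAMTA1, MSRA, MACROD2, THSD4 and RAD51B, which both compounds lowered.

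Set against other genes of matched 12-array mean signal, a larger share of the list was lower in each of 4 signal bins. That mean includes the AICAR arrays, so genes that fell were placed in dimmer bins than their DMSO levels alone would give. DIAPH2 (DMSO means 6.61 in sh-p53 and 6.56 in sh-con cells) and NBEA (5.88 and 6.43) lay in the dimmest of the 4, which ended at 5.86. Genes were not matched on the DMSO arrays alone. With tested genes in 4 equal bins, from the dimmest to the brightest, 3 of 5, 9 of 12, 11 of 11 and 6 of 7 very long genes were lower with AICAR in sh-p53 cells, beside 6.23%, 18.3%, 29.5% and 31.8% of the other genes there. In sh-con cells 3 of 5, 9 of 12, 11 of 11 and 7 of 7 were lower, beside 5.86%, 19.4%, 33.6% and 33.2%. In 10 bins, the dimmest (4.58 to 5.08) held MACROD2 and THSD4 alone of the list, and 0 of the 2 were lower, beside 4.13% of the other genes there in sh-p53 cells and 3.33% in sh-con cells. With the 4 bins, the median difference of the 35 from the other genes of their bin was -1.45 log2 units in sh-p53 cells and -1.41 in sh-con cells. With Nutlin the same difference was -0.04 in sh-p53 cells and -0.07 in sh-con cells.

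**Figure D3:**
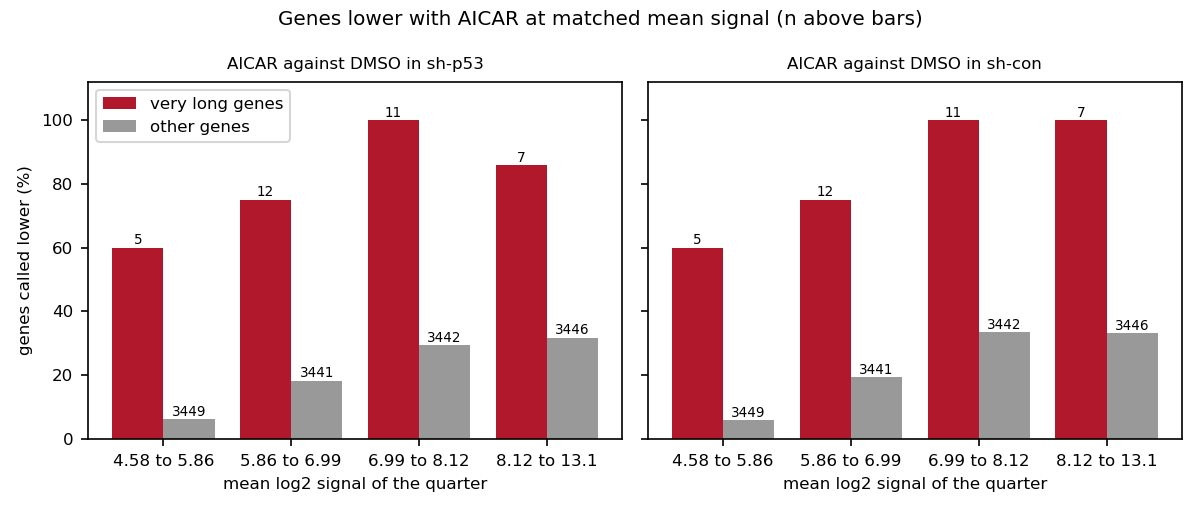
Share of genes called lower with AICAR (percent, vertical axis) in each of 4 bins of mean log2 signal, for very long genes of the list (red) and other tested genes (grey), in sh-p53 and sh-con cells, with the number of genes above each bar. The red bars reach 60% to 100% and the grey bars 5.86% to 33.6%.

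A fall with AICAR was frequent among long genes outside the list too. Of 243 other tested genes of 350 kb and over, 58.8% were lower in sh-p53 cells and 60.1% in sh-con cells, with medians of -0.60 and -0.66 log2 units. Below 350 kb the share lower grew with locus length: in sh-p53 cells it was 9.24% under 10 kb, 12.2% from 10 to 30 kb, 24.7% from 30 to 100 kb and 55.3% from 100 to 350 kb, and in sh-con cells 9.77%, 15%, 26.3% and 56.3%. Over 13800 genes with a locus length, the AICAR change and the length had a Spearman correlation of -0.381 in sh-p53 cells and -0.373 in sh-con cells, given as a description across genes of the same arrays. Within the long genes there was no such trend. Over the 278 tested genes of 350 kb and over the correlation was -0.03 in both lines, and over the 35 it was 0.134 and 0.184, so the longest genes of the list were not the ones that fell furthest. The class result depends on signal: with dim genes kept, the median of the other long genes was 0.01 in sh-p53 cells and 0.05 in sh-con cells, and in the dimmest of the 4 signal bins 25.5% and 28.4% of genes of 350 kb and over were lower. In the next bin 76% and 74.7% were lower, and in the third 91.2%, in sh-p53 and sh-con cells. In the brightest bin 81.8% and 87.9% were lower.

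**Figure D4:**
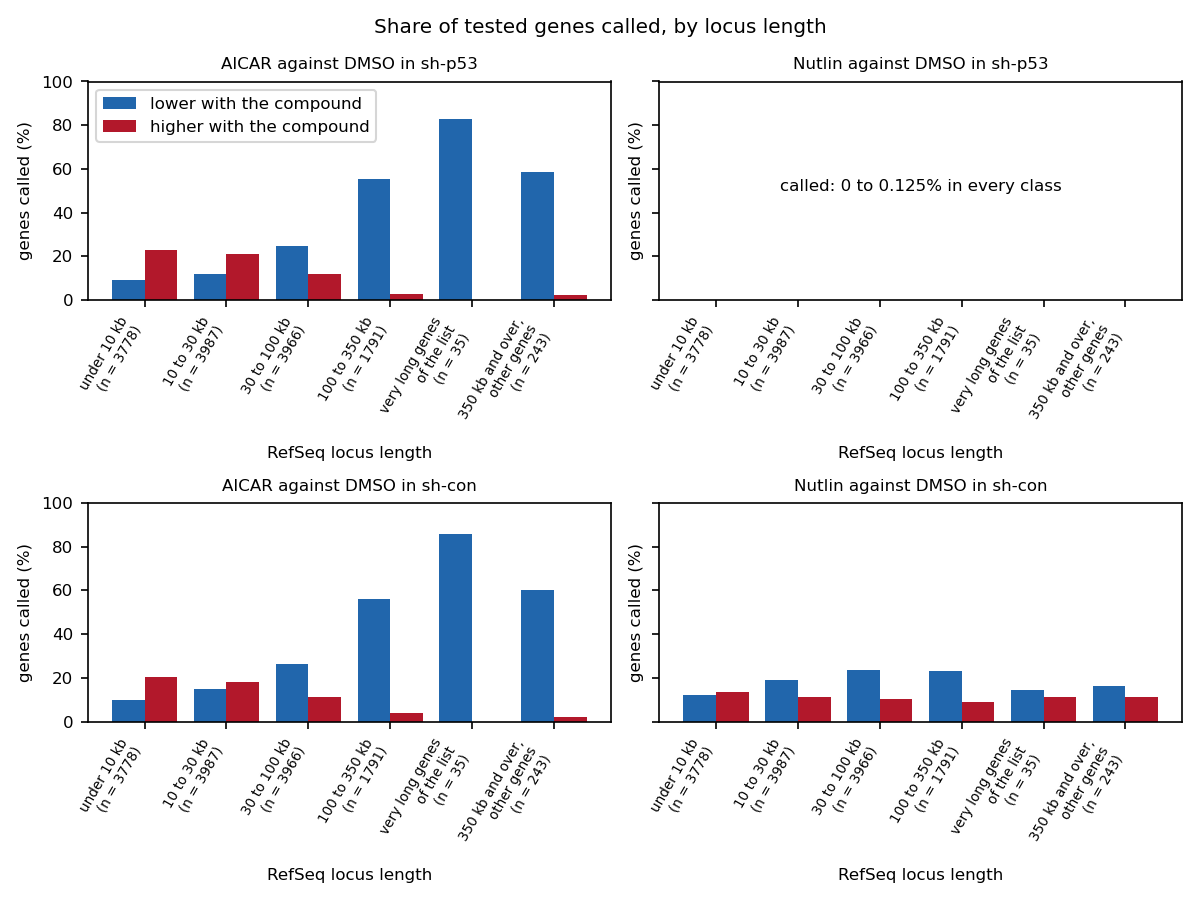
Share of tested genes called lower (blue) and higher (red) with AICAR (left) and Nutlin (right), by class of RefSeq locus length, in sh-p53 cells (top) and sh-con cells (bottom), with the list and the other genes of 350 kb and over at the right. With AICAR the share lower climbs from under 10% to 55.3% and 56.3% at 100 to 350 kb in sh-p53 and sh-con cells. It is 58.8% and 60.1% in the other genes of 350 kb and over. In the list, which is not a length class and was chosen with earlier results known, it is 82.9% and 85.7%. With Nutlin in sh-p53 cells the share lower is 0 in every class, with 0 to 0.125% higher, too low to show.

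Other long genes with the largest falls in sh-con cells lay between PLCB1 and SUPT3H in size. DOK6, an adaptor of receptor tyrosine kinases, had 5.70 and 5.67 log2 units with AICAR against 7.62 and 7.60 with DMSO in sh-p53 cells, and 5.18 and 4.82 against 7.69 and 7.47 in sh-con cells, and changed by -1.93 ± 0.16 (SE) in sh-p53 cells and -2.58 ± 0.16 in sh-con cells. RSRC1, CMSS1, the transcription factor NFIA and SIPA1L1 followed, with changes of -2.45 to -1.92 in sh-p53 cells and -2.55 to -2.49 in sh-con cells. A few long genes were called higher with AICAR in sh-con cells. MAST4, a kinase, changed by 0.02 in sh-p53 cells and was higher by 0.64 ± 0.145 in sh-con cells (adjusted p 0.0020). FRMD4B was higher by 0.54 ± 0.155 in sh-p53 cells and 0.61 ± 0.155 in sh-con cells, and lost its sh-con call under a second quantile normalisation (0.43, adjusted p 0.0522). GRM5, SYNE1 and PLXNA4 were higher by 0.41 to 0.50 in sh-con cells and lost their calls under both other scalings. PLXNA4 lay near the dim level (mean 4.64), with sh-con DMSO values of 4.48 and 4.45 under it, and changed by 0.04 in sh-p53 cells. At the edge of the length rule, PTK2, NCOA2 and HHAT, at 344 to 349 kb, changed by -1.29, -1.21 and -0.11 in sh-p53 cells and by -1.35, -1.92 and 0.80 in sh-con cells. MED12L, SLC2A13 and ARHGEF3, at 351 to 352 kb, changed by -0.0034, -0.78 and -0.64 in sh-p53 cells, and by -0.67, -0.57 and -0.16 in sh-con cells.

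Among relatives of the listed genes, the share lower with AICAR was greater in the classes of long loci. For 28 gene families that hold a very long gene of the list, 86 relatives were tested. In sh-p53 cells 3 of 19 relatives under 10 kb, 1 of 16 from 10 to 30 kb, 9 of 27 from 30 to 100 kb, 11 of 15 from 100 to 350 kb and 7 of 9 of 350 kb and over were lower with AICAR. In sh-con cells the counts were 3, 2, 8, 10 and 7. In 18 families with a tested relative under 100 kb, the listed gene had a lower fold change than all of them in 15 families in sh-p53 cells and 14 in sh-con cells. Calls were not required: RERE in sh-p53 cells (-0.31, not called, beside 0.30 for ATN1) was counted. The list and the family rosters were chosen with values known, so these counts describe the chosen genes and are not a test.

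The exocyst, a single protein complex, holds both short and long genes. EXOC8, at 5.10 kb, was higher with AICAR, by 1.09 log2 units in sh-p53 cells and 0.97 in sh-con cells. EXOC7, EXOC3, EXOC1 and EXOC5, at 22.8 to 68.4 kb, changed by -0.30 to -0.13 in sh-p53 cells and -0.40 to -0.03 in sh-con cells, and none was called. EXOC2 at 208 kb changed by -1.03 in sh-p53 cells and -1.18 in sh-con cells, EXOC6 at 233 kb by -1.70 in sh-p53 cells and -1.63 in sh-con cells, the listed EXOC4 at 848 kb by -1.23 in sh-p53 cells and -1.28 in sh-con cells, and EXOC6B at 650 kb by -2.07 in sh-p53 cells and -2.25 in sh-con cells. Among the protein kinases C, PRKCD at 31.5 kb changed by 0.12 and -0.14 and PRKCI at 83.6 kb by -0.31 and -0.18, against -2.52 in sh-p53 cells and -3.12 in sh-con cells for PRKCA at 508 kb. PRKCE, at 537 kb, changed by -0.61 in sh-p53 cells and -0.94 in sh-con cells, much less than PRKCA at a similar length. Of the receptor phosphatases, PTPRU at 90.3 kb was higher by 0.42 in both lines, and PTPRM at 840 kb changed by -1.86 in sh-p53 cells and -1.74 in sh-con cells. In the TRAPP complex the order was broken: TRAPPC8 at 114 kb changed by -1.26 in sh-p53 cells and -0.94 in sh-con cells, while the listed TRAPPC9 at 731 kb was not called. TRAPPC4 at 5.37 kb was lower too, by -1.10 and -0.41. Among the lower relatives under 100 kb counted above, FARSB at 89.2 kb changed by -1.26 and -1.37, beside -1.49 and -1.31 for the listed FARS2. SLC39A14 at 66.9 kb changed by -0.73 and -1.30, beside -1.53 and -1.33 for the listed SLC39A11. KALRN, the 693 kb relative of TRIO, changed by -0.29 and -0.10 and was not called, and GPC3, the 450 kb relative of GPC6, by -0.19 and -0.23.

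**Figure D5:**
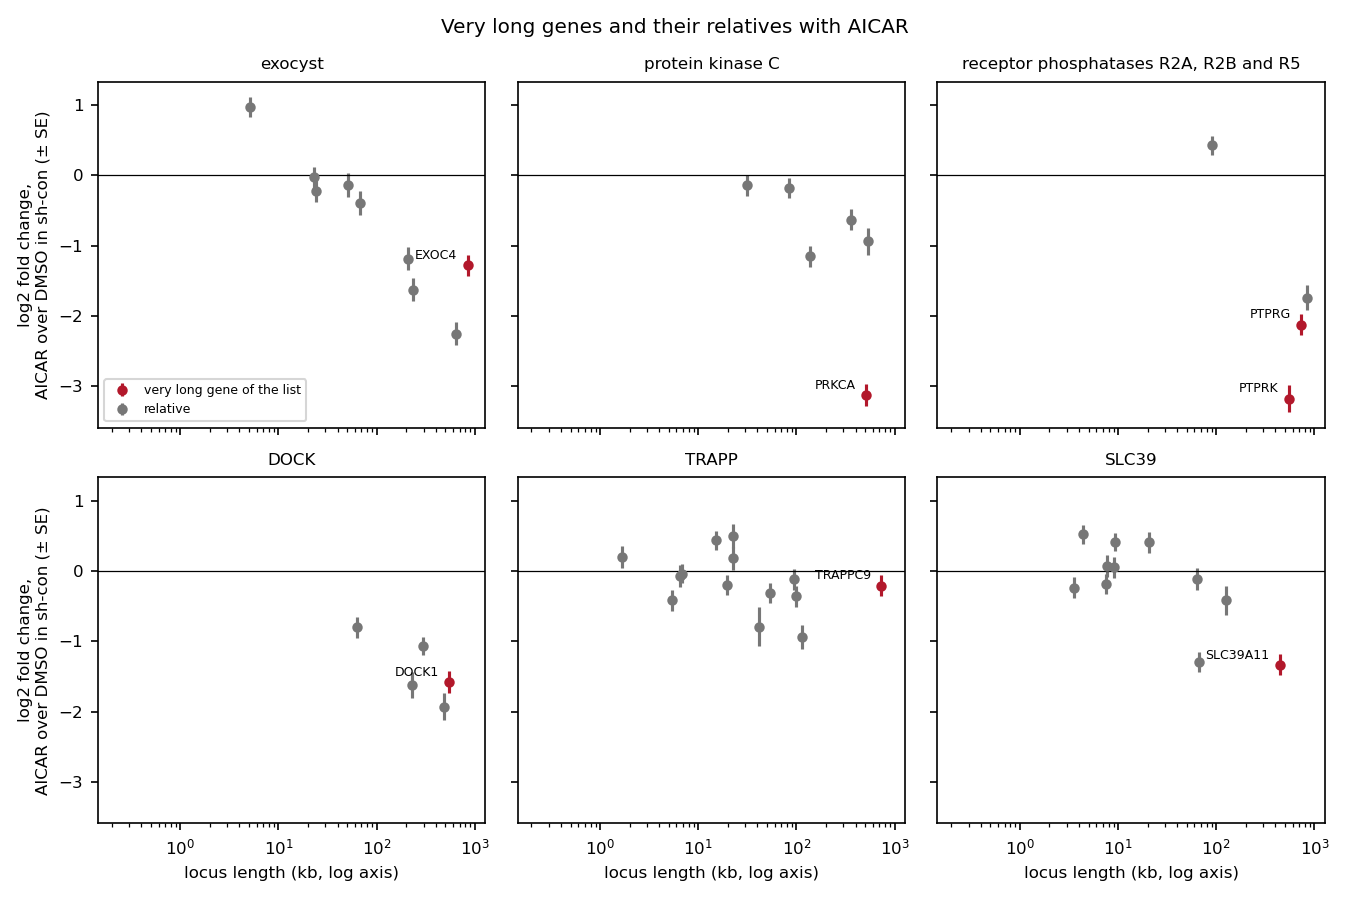
Log2 fold change of AICAR over DMSO in sh-con cells (± SE of the fit) against RefSeq locus length on a log axis for the tested genes of 6 of the 28 families, chosen for display after their values were seen, with listed genes in red and named. Changes run from 0.97 for EXOC8 to -3.17 for PTPRK, and TRAPPC9 lies near 0 at 731 kb.

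The nearest tested genes beside the very long loci fell at about the share of all genes tested. A flanking gene was the nearest tested gene on either side that did not overlap the locus. Dim, unmeasured or overlapping genes in between were passed over, so some flanking genes may not be direct neighbours. Next to the 29 genes lower in both lines lay 56 tested flanking genes outside the list. Of these 15 were lower (26.8%) and 7 higher in sh-p53 cells, and 13 (23.2%) and 9 in sh-con cells, beside 21.6% and 23.2% of all genes lower, with medians of 0.04 and 0.02 log2 units. Split by length, 9 of 42 flanking genes under 100 kb and 6 of 14 of 100 kb and over were lower in sh-p53 cells, and 7 of 42 and 6 of 14 in sh-con cells. CHCHD3, a 297 kb neighbour of EXOC4, changed by -1.78 in sh-p53 cells and -2.17 in sh-con cells. Of 4 tested genes nested inside a fallen locus, 1 was lower in both lines: the small nucleolar RNA gene RNU105B within PLCB1, which changed by -1.55 in sh-p53 cells and -1.57 in sh-con cells.

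Genes of the elongation machinery moved both ways with AICAR, in sh-p53 cells near the shares of all genes tested. Of 38 tested genes of a list of elongation factors, 10 were lower (26.3%) and 6 higher (15.8%) in sh-p53 cells. The shares of all genes there were 21.6% lower and 16.2% higher. In sh-con cells 14 were lower (36.8%) and 9 higher (23.7%), beside 23.2% and 14.6% of all genes. Lower were MLLT3, a reader in the super elongation complex (-1.55 log2 units in sh-p53 cells, -1.37 in sh-con cells), RTF1, of the PAF complex (-0.90 in sh-p53 cells, -0.87 in sh-con cells), AFF1, a scaffold of the super elongation complex (-1.07 in sh-p53 cells, -0.86 in sh-con cells), and in sh-con cells the kinase CDK12 (-0.41 in sh-p53 cells, -0.82 in sh-con cells). Higher were POLR2A, the largest subunit of RNA polymerase II (1.63 in sh-p53 cells, 0.97 in sh-con cells), the methyltransferase MEPCE (1.30 in sh-p53 cells, 1.02 in sh-con cells) and HEXIM1 (0.76 in sh-p53 cells, 0.79 in sh-con cells), which hold P-TEFb inactive, and in sh-con cells ELL3 (0.33 in sh-p53 cells, 1.27 in sh-con cells). These lower genes spanned 66.5 kb (RTF1) to 281 kb (MLLT3), and these higher ones 3.63 kb (HEXIM1) to 30.3 kb (POLR2A). Others on the list broke that order. SSRP1, at 9.91 kb, was lower in sh-con cells (-0.56), and RPRD1B, at 58.6 kb, was higher in both lines (0.56 in sh-p53 cells, 0.45 in sh-con cells). Of 7 genes on a list of topoisomerases and the DNA phosphodiesterases TDP1 and TDP2, 2 were lower (28.6%) and 0 higher in each line. That was near the share of all genes lower. The second lower gene, beside TOP2B, was TDP1 in sh-p53 cells (-0.49) and TOP3B in sh-con cells (-0.38). TOP2B, lower in both lines, changed by -0.84 in sh-p53 cells and -0.96 in sh-con cells. With Nutlin in sh-con cells 14 elongation genes were lower (36.8%) and 3 higher (7.89%), beside 18.9% of all genes lower and 11.3% higher. Of the other 7 genes, 3 were lower there: TOP2A, TOP3A and TDP1. Any part of these genes in the fall of the list was not tested.

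The promoters of the listed genes were examined for what they share, as they moved together. RefSeq (GRCh38.p14) promoters, from 250 bases before to 50 after the start, were matched for 29 of the 35 tested genes. Their median GC content was 64.7%, from 32.3% to 81.3%, beside 65% over 10825 tested genes, and the median count of CpG was 25 in both. Searched on both strands, and with none of the motifs holding another, the GC box GGGCGG was in 62.1% of the 29 (68.1% of all), TATAAA in 6.9% (6.48%), the E-box CACGTG in 10.3% (10.1%) and CCAAT in 17.2% (35.9%). CCAAT was found in 2 of 26 listed genes that were lower with AICAR in sh-con cells and in all 3 with a promoter that were not called, CAMTA1, MACROD2 and THSD4, numbers too small for a comparison. A match is not evidence of binding. Shown are 3 promoters of genes that fell and that of CAMTA1, which was not called, to set their sequence types side by side, with the GC box in capitals (on either strand, so that it can also read CCGCCC). The TBC1D5 window holds none.
PTPRK (chr6:128520550-128520849, minus strand): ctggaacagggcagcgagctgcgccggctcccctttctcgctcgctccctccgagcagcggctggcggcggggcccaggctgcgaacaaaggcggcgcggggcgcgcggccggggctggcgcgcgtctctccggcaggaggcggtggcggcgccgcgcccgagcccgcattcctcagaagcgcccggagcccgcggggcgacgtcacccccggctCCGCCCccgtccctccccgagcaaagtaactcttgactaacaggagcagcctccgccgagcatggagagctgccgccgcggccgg
PRKCA (chr17:66302363-66302662, plus strand): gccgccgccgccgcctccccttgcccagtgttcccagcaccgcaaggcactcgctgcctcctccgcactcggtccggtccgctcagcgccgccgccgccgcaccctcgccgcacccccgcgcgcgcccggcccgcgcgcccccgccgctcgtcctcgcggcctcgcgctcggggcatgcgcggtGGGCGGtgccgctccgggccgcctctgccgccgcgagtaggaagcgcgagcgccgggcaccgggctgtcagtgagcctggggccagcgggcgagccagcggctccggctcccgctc
TBC1D5 (chr3:17740858-17741157, minus strand): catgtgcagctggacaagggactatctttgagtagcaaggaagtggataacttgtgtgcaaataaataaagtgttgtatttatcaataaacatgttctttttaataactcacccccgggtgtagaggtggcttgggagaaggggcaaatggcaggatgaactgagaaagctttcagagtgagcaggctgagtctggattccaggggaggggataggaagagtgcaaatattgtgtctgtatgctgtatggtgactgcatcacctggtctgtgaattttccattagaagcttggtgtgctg
CAMTA1 (chr1:6785204-6785503, plus strand): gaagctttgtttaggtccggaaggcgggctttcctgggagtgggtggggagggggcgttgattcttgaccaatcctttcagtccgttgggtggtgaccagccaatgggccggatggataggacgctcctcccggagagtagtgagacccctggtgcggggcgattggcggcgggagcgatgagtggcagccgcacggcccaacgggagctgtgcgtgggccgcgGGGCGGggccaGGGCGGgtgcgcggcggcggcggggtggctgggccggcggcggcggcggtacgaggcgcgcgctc
PTPRK and PRKCA fell most and have GC-rich promoters with 44 and 52 CpG (76.3% and 81.3% GC), whereas the TBC1D5 window, from a gene that changed by -1.53 in sh-p53 cells and -2.22 log2 units in sh-con cells, has 1 CpG and 44.7% GC. CAMTA1, with 34 CpG and 71.3% GC, is closer to the first pair.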

How the data were processed

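Biotin-labelled total RNA from 12 HepG2 cultures was hybridised to 1 array each. Per the submitters' processing notes the authors used RMA and Partek, with no version, and deposited 1 table of log2 expression values (2.14 to 14.33). The build of the probe annotation is not given in the sources used here. Cells were plated as biological duplicates, so p-values measure the spread between such cultures. That spread was pooled over the 6 groups and moderated across genes, and 2 arrays a group limit the precision.

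Of 33297 probe sets, 19460 had 1 gene symbol in the platform annotation, 1754 had several and 12083 were not listed. The brightest probe set stood for each of 18417 genes, and the 4604 with a mean under the 25th percentile (4.58) were left out. A limma model (version 3.58.1, R 4.3.3) of group means was fitted to all 12 arrays and 13813 genes, with empirical Bayes (6 residual and 11.3 prior degrees of freedom), contrasts and interactions taken from it, and Benjamini-Hochberg adjustment at 0.05 over all genes. Standard errors are those of this fit. Locus lengths and promoters came from RefSeq (GRCh38.p14), matched by Entrez ID for 13800 of the tested genes. Other genes of like signal were those in the same of 4 equal bins of the 12-array mean. The fit was tested on simulated data. Alternatives were a second quantile normalisation, median centring, no filter or the 50th percentile, the mean over probe sets, an intensity trend, the compared groups alone, the replicate number as a block, 10 signal bins, and each array left out.

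The members and lists were chosen with earlier results of these data known. Values in each array are given for the 8 lowest and 8 highest changes with AICAR in sh-con cells, for genes called between lines and for up to 4 each way with Nutlin; outside the list, for 5 long genes each way and up to 4 transcription genes each way. Family rosters, flanking and nested genes, the split of long genes by signal, the promoters and motifs shown, the plotted families, PRKCA with Nutlin and genes named between AICAR- or Nutlin-treated lines were chosen after values were seen. MAGI1 and MAGI2 were not analysed here.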

Additional observations from a re-analysis of the deposited data

How the results depend on the processing

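The fall of the very long genes as a set with AICAR kept its direction under all alternatives run. In sh-p53 cells its median moved beyond the spread of the arrays with centring and with dim genes kept, as given below. Of 1129 repeats for single genes, 1044 kept direction and call, 63 lost a call, 10 gained one and 12 turned sign. Of 308 repeats of counts and class medians, 251 stayed within 1.5 times the count or within the spread of the arrays. When 1 array was left out (a lone array is then taken to vary like the other groups), AICAR called 27 to 29 genes lower and 0 higher in sh-p53 cells, and 28 to 30 lower and 0 to 1 higher in sh-con cells. Nutlin in sh-con cells then called 2 to 6 lower and 1 to 2 higher, sh-p53 against sh-con 0 to 1 lower and 0 to 2 higher with AICAR and 0 to 2 lower and 1 to 5 higher with Nutlin, the AICAR interaction 0 to 1 higher, and Nutlin against AICAR 27 to 30 higher.

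Signs turned, with no call, for TRAPPC9 in sh-p53 cells (-0.0422 with a second quantile normalisation, -0.122 with centring, -0.148 to 0.208 leaving out 1 array, the lowest without sh-p53 DMSO replicate 2), CAMTA1 in sh-con cells (-0.0254, -0.0762, and -0.0296 to 0.159 leaving out 1 array, the lowest without sh-con DMSO replicate 2), MACROD2 in sh-p53 cells (-0.0616, -0.0698) and sh-con cells (-0.096, -0.0755) and THSD4 in sh-p53 cells (-0.0172, -0.0301). Counts moved by over 1.5 times were 8 lower with Nutlin in sh-con cells (compared groups alone), 2 higher there (centring, and the 50th percentile), and for sh-p53 against sh-con 2 lower with AICAR (second quantile normalisation, and the 50th percentile), 1 lower (intensity trend) and 5 lower with Nutlin (second quantile normalisation). With centring, the class medians from under 10 kb to 100 to 350 kb, then other genes of 350 kb and over, were 0.0557, -0.00483, -0.198, -0.622 and -0.747 with AICAR in sh-p53 cells and 0.0535, -0.0375, -0.208, -0.657 and -0.799 in sh-con cells, and the list's own was -1.55 in sh-p53 cells. With dim genes kept they were 0.15, 0.123, 0.0109, -0.171 and 0.00799 in sh-p53 cells, -1.29 for the list, and in sh-con cells 0.0202 (30 to 100 kb), -0.167 and 0.0492. With Nutlin, centring gave -0.00968, -0.0557, -0.121 (100 to 350 kb) and -0.0872 (other genes of 350 kb and over) in sh-p53 cells and 0.0876 and -0.051 (under 10, and 10 to 30 kb) in sh-con cells, and keeping dim genes gave 0.00292 for the other genes of 350 kb and over in sh-p53 cells and 0.054, 0.0133 and 0.0122 (10 to 350 kb) in sh-con cells. The cause was not tested beyond what each alternative changes.

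The replicate numbers did not pair the arrays consistently: same-numbered deviations correlated at -0.558 to 0.567, with 7 of 15 over 0.1. Among the sh-con groups and sh-p53 Nutlin they correlated at 0.252 to 0.567. Those of sh-p53 AICAR correlated with these groups at -0.558 to -0.386. Duplicates thus differed along a partly shared pattern whose sign did not follow the given number. A block by that number does not capture it, and its source was not tested. With the number as a block, AICAR called 30 genes lower in each line, and 0 higher in sh-p53 cells and 1 in sh-con cells (THSD4, adjusted p 0.0402). Low signal limits the 5 dim genes, MACROD2 and THSD4, and the size of the falls that ended under the dim level.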
